A study of Homo sapiens with 6 samples.

Results

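The genes described here were 10 regulators of mitosis, AURKA, AURKB, PLK1, PLK4, BUB1, BUB1B, TTK, NEK2, MAD2L1 and CDC20. They were taken by their symbols in the deposited gene table, where each symbol matched 1 row, so that they make up 10 of the 57773 rows. The data were mRNA sequencing of SW872 cells, a human liposarcoma line that is long established and was grown in RPMI-1640 medium. In the Apatinib group, 3 replicates had received 18 μM Apatinib, an inhibitor of the VEGF receptor VEGFR2, for 24 h, and in the control group 3 replicates were left untreated. Both groups came from the same cell line and no other agent or allele set them apart, so the comparison concerns a single line in culture. Whether a vehicle was added to the controls was not given in the sources used here.

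These genes belong to the machinery that builds the mitotic spindle and holds chromosome separation until every chromosome is attached. Aurora and Polo kinases drive centrosome maturation, spindle assembly and the correction of wrong attachments. TTK and BUB1 act at unattached kinetochores, where MAD2L1 and BUB1B are loaded with CDC20 into a complex that blocks the anaphase-promoting complex, the ubiquitin ligase that starts anaphase. Transcripts of most of these genes are known to be low in quiescent and early cycling cells and to accumulate as cells approach mitosis. In RNA from a whole culture, fewer cells near mitosis and less RNA per cell cannot be told apart.

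The total count ranged from 17043314 to 22067558 per library. The markers of the labelled cell type were those of a mesenchymal line: all 8 mesenchymal markers exceeded 1 FPKM (fragments scaled to transcript length and library size), led by VIM with means of 936 FPKM for the controls and 1133 FPKM for the treated replicates. Of 8 mature adipocyte markers 2 exceeded 1 FPKM in the control group, led by PPARG at 20.5 FPKM, while ADIPOQ, FABP4 and LEP were listed at 0 in all 6 libraries. Of 6 epithelial markers 2 did so, led by KRT18 at 142 FPKM, with EPCAM and CDH1 below 1 FPKM. TEK at 1.68 FPKM was the leading of 4 endothelial markers, and CD68 at 2.65 FPKM, with at most 1 count in any library, the leading of 6 blood cell markers, with PTPRC listed at 0. Of the markers outside the mesenchymal list, KRT8 (log2 fold change 0.71, edgeR FDR 0.0166), LPL (0.84, edgeR FDR 0.0237) and VWF (1.52, edgeR FDR 0.0386) rose and CDH5 fell by 1.22 (edgeR FDR 0.0242) with Apatinib, where VWF and CDH5 were below 1 FPKM in every library. The mean of CD68 was 9.05 FPKM in the treated replicates. Its FPKM values and its counts disagree, so no rise of CD68 is read from them. The part of these marker changes in the results below was not tested. Control replicates 1 and 2 stood apart from the other pairs by their likeness. Their counts gave a mean chi-square of 2.27 per gene, which is above sampling noise, whereas the other pairs within a group gave 18.2 to 44.5. Whether they came from separate cultures was not given in the labels and was not tested, since repeat libraries of 1 culture can also differ by more than counting noise. They were kept as 2 replicates, so that n = 3 for the controls rests on this, and the counts of calls below are also given with either of them left out and with both summed.

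All 10 genes had lower estimates in the Apatinib group, and 5 of them fell: PLK4, TTK, MAD2L1, NEK2 and BUB1. A gene was called a differentially expressed gene (DEG) at a false discovery rate (FDR, the Benjamini-Hochberg adjusted p over all genes tested) under 0.05 in the edgeR quasi-likelihood test if its log2 fold change was also larger than 0.5 in either direction. Of the 16290 genes tested, 5.48% were called lower and 5.97% higher, and of the 10 mitotic genes 5 were called lower and 0 higher. The median log2 fold change was -0.66 over the 10 genes and 0.00 over all genes tested. For 8 of the 10 genes, all but AURKB and CDC20, the 3 treated replicates were below the 3 controls, compared with 15.7% of all genes tested. DESeq2, the tool named in the study's methods, called 7 of the 10 genes lower, the same 5 with BUB1B (DESeq2 FDR 0.0154) and PLK1 (DESeq2 FDR 0.0367). It called 1049 of the 32596 genes it read lower (3.22%). That set was not filtered beforehand, and edgeR called 893 of its 16290 genes lower.

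The count of calls rested on control replicates 1 and 2. Without control replicate 1, 0 of the 10 genes were called by edgeR and 7 had an unadjusted p under 0.05. The counts were the same without control replicate 2. In those fits 0.497% and 0.509% of all genes tested were called lower. With both summed as 1 library, 0 of the 10 genes and 0.508% of all genes were called lower, with 7 of the 10 at an unadjusted p under 0.05 in edgeR. With all 6 libraries, 7 of the 10 genes and 4979 of the 16290 genes tested, in either direction, were under that unadjusted limit. The number of all genes under it was not taken in the other fits, so the counts of 7 are a description. Without Apatinib replicate 1, 3 of the 10 genes and 1.62% of all genes were called lower, and without Apatinib replicate 2, 3 and 3.63%. Without Apatinib replicate 3 these were 6 and 5.94%, and without control replicate 3 they were 5 and 8.89%. The loss of calls was thus seen over all genes and not in the mitotic genes alone. The fold changes of all 10 genes were below 0 in each of these fits.

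**Figure D1:**
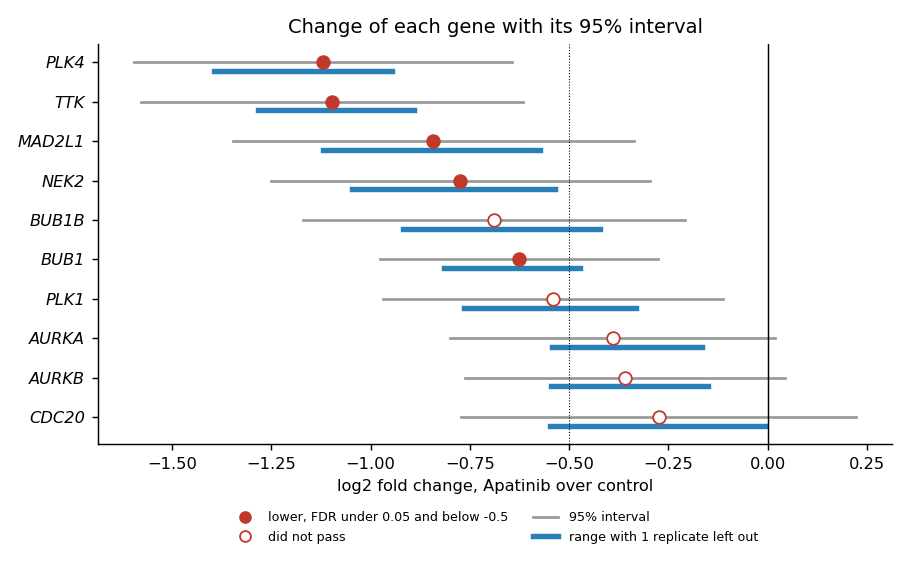
The log2 fold change of each gene (Apatinib against control) from edgeR is plotted with its 95% interval as a thin line and the range over fits that each left out 1 of the 6 libraries as a thick line, with filled marks for genes called lower. The estimates run from -1.12 for PLK4 to -0.27 for CDC20, and the intervals of AURKA, AURKB and CDC20 include 0.

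Promoter sequences of 5 of the genes are shown because they span the range of the changes, from PLK4, with the lowest estimate, through MAD2L1, BUB1 and PLK1 to CDC20, with the estimate nearest to 0. They are RefSeq windows of 300 bases on GRCh38.p14, from 250 bases before to 50 after an annotated start, each written 5′ to 3′ on the strand of its gene. Genes of late cell cycle expression are often controlled through a CHR element (cell cycle genes homology region) and CCAAT boxes. Capitals mark exact matches, on either strand, to the CHR letters TTTGAA or TTCGAA and to CCAAT, so that a match on the opposite strand reads TTCAAA or ATTGG. The counts were made on another build and were not joined to these coordinates.
PLK4, chr4:127880643-127880942, plus strand, the first of 3 windows: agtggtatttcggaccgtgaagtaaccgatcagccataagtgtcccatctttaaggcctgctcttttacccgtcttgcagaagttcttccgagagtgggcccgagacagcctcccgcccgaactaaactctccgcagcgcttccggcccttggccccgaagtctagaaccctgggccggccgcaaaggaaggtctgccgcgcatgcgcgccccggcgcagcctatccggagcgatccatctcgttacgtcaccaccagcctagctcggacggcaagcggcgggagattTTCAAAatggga
MAD2L1, chr4:120066799-120067098, minus strand: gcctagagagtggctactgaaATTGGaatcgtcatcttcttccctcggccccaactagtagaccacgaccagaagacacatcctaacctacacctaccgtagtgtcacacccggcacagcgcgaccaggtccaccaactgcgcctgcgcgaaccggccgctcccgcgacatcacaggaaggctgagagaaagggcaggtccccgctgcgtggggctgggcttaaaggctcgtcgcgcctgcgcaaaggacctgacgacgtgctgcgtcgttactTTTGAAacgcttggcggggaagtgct
BUB1, chr2:110678014-110678313, minus strand: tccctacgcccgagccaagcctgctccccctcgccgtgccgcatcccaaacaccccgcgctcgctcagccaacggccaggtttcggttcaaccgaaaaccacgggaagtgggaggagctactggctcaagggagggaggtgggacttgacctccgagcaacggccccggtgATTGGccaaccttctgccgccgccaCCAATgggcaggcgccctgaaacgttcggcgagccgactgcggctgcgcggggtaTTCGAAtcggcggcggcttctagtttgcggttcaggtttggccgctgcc
PLK1, chr16:23678639-23678938, plus strand: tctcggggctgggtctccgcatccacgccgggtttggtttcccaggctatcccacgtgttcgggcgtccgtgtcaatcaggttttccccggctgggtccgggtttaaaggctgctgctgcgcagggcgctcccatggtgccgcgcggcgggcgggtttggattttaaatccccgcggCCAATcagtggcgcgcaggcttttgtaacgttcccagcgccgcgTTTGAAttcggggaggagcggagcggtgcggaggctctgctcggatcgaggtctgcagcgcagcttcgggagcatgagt
CDC20, chr1:43358731-43359030, plus strand: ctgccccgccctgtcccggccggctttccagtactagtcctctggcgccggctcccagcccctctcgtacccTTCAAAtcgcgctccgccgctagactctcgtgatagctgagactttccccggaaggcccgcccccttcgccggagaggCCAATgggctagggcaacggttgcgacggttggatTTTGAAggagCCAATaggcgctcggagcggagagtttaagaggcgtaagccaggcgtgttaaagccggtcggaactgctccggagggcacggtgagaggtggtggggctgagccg

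The promoter table held 8 of the 10 genes, and AURKA and TTK were not matched in it. It gave 3 windows for PLK4, 2 for AURKB and 1 for each other gene. CHR letters stood in at least 1 window of 6 of the 8 genes, PLK1, PLK4, BUB1, BUB1B, MAD2L1 and CDC20, compared with 19.5% of the 27305 genes in the table. Counted by window, they stood in 6 of 11 windows of these genes and in 16.4% of all 35116 windows. On the strand of the gene, the match began 29 bases before the annotated start in PLK1, 23 bases before it in BUB1B and 65 bases before it in CDC20. In BUB1 and MAD2L1 it began at bases 2 and 25 counted from the annotated start. CCAAT letters were found in at least 1 window of 7 of the 8 genes, with BUB1B the exception, compared with 39.7% of all genes, and in 8 of 11 windows compared with 34.6% of all windows. The E2F letters TTTGGCGC and TTTCGCGC, also searched on both strands, were found in none of the members' windows and in 1.15% of all windows. Matches of this kind were present in CDC20 and PLK1, which were not called, as well as in BUB1 and MAD2L1, which fell. They describe the letters in these windows and are not evidence of binding.

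PLK4, the kinase that starts centriole duplication, had the lowest estimate of the Polo kinases. Its level was 22.4, 19.0 and 33.8 CPM (counts relative to library size, scaled by the TMM method) in Apatinib replicates 1 to 3 and 60.4, 61.8 and 41.4 CPM in control replicates 1 to 3. The groups did not overlap, and control replicate 3 lay nearest to the treated replicates. The mean fell from 54.6 ± 11.4 CPM (SD, n = 3) to 25.1 ± 7.76, a log2 fold change of -1.12 with a standard error of 0.218, which is 46.0% of the control level (edgeR FDR 0.0116). The call was lost without control replicate 1 (FDR 0.0583) and without control replicate 2 (FDR 0.0556). Of its Ensembl gene, ENSG00000142731, 337 to 591 counts were behind the treated values and 904 to 1124 behind the control values.

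PLK1 (ENSG00000166851), the Polo kinase of mitotic entry and spindle assembly, was read at 232, 124 and 183 CPM in the Apatinib replicates. Its control values were 238, 249.8 and 297 CPM. The groups did not overlap, but Apatinib replicate 1 came within a few CPM of control replicate 1. The log2 fold change was -0.54 (standard error 0.195, 95% interval -0.97 to -0.11), 68.7% of the control level, and it was not called (edgeR FDR 0.0877). Without Apatinib replicate 1 it was called at -0.77 (edgeR FDR 0.0383), and without Apatinib replicate 2 the estimate was -0.33 (edgeR FDR 0.143). In GENCODE release 29, 11.62% of the exon bases of PLK1 are shared with an antisense gene on the other strand, and the strand setting of the counting was not given in the sources used here.

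Among the Aurora kinases, AURKA (ENSG00000087586), which acts at centrosomes and spindle poles, had 130.2, 72.5 and 122 CPM in the Apatinib replicates. The control replicates had 135, 141 and 149 CPM. The groups were separate, although Apatinib replicates 1 and 3 were near the control range and only Apatinib replicate 2 was far below it. The log2 fold change was -0.39 (standard error 0.187, 95% interval -0.80 to 0.02) and did not pass the test (edgeR FDR 0.184). AURKB (ENSG00000178999), the catalytic subunit of the chromosomal passenger complex, had 80.8, 45.0 and 68.9 CPM against 78.7, 81.2 and 89.9 CPM. Here the groups overlapped, since Apatinib replicate 1 was above control replicate 1. Its log2 fold change was -0.36 (standard error 0.184, 95% interval -0.76 to 0.04, edgeR FDR 0.212). Neither Aurora kinase was called in any fit that left out 1 library, in which their FDR values were 0.0953 or more. Without Apatinib replicate 2 the estimates were -0.17 for AURKA and -0.15 for AURKB, and without Apatinib replicate 1 they were -0.54 for both.

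TTK (ENSG00000112742), also known as MPS1, is the kinase that starts checkpoint signalling at kinetochores. It had 31.6, 21.1 and 37.0 CPM in the Apatinib replicates and 72.6, 73.2 and 46.3 CPM in the control replicates. The groups did not overlap, and as for PLK4 the third control replicate was the lowest of the controls. TTK fell from 64.0 ± 15.4 to 29.9 ± 8.09 CPM (SD, n = 3), a log2 fold change of -1.10 (standard error 0.220), or 46.7% of the control level (edgeR FDR 0.0128). The call was lost without control replicate 1 (FDR 0.0637) and without control replicate 2 (FDR 0.0613).

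NEK2 (ENSG00000117650), a kinase that splits the centrosomes before mitosis, had 34.2, 22.2 and 45.9 CPM with Apatinib and 60.1, 64.8 and 50.3 CPM in the controls. The groups were separate by a few CPM, between Apatinib replicate 3 and control replicate 3. NEK2 fell by 0.77 on the log2 scale (standard error 0.218), to 58.5% of the control level (edgeR FDR 0.0402). The call was lost without Apatinib replicate 1 (FDR 0.0950), Apatinib replicate 2 (FDR 0.0635), control replicate 1 (FDR 0.131) or control replicate 2 (FDR 0.152).

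The checkpoint kinase BUB1 (ENSG00000169679), which marks centromeric chromatin and recruits other checkpoint proteins, had 87.2, 70.9 and 113 CPM in the Apatinib replicates. Its control values of 142, 146 and 129.96 CPM were close to each other. The groups were separate, and the fall was from 139 ± 8.29 to 90.2 ± 21.0 CPM (SD, n = 3). This is a log2 fold change of -0.63 (standard error 0.160, the smallest of the 10 genes), or 64.8% of the control level (edgeR FDR 0.0296). The call was lost without Apatinib replicate 1 (FDR 0.0799), Apatinib replicate 2 (FDR 0.0564), control replicate 1 (FDR 0.114) or control replicate 2 (FDR 0.125).

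BUB1B (ENSG00000156970), the BUBR1 subunit of the mitotic checkpoint complex, had 38.3, 21.2 and 45.3 CPM against 58.2, 56.0 and 54.7 CPM. All treated replicates were below the controls, which differed among themselves by a standard deviation of 1.74 CPM. The log2 fold change of -0.69 (standard error 0.219, 95% interval -1.17 to -0.21) was below that of BUB1 but was not called (edgeR FDR 0.0594). Without Apatinib replicate 3 it was called at -0.92 (edgeR FDR 0.0312), and without Apatinib replicate 2 the estimate was -0.42 (edgeR FDR 0.0584). A read-through gene, BUB1B-PAK6, shares 10.21% of its exon bases on the same strand, so that part of its reads could be split between both.

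MAD2L1 (ENSG00000164109), the MAD2 protein that binds CDC20 when a kinetochore is unattached, had 53.8, 31.2 and 70.1 CPM in the Apatinib replicates. In the controls it had 99.4, 97.1 and 81.4 CPM. The groups were separate, and control replicate 3 was again the lowest control. MAD2L1 fell from 92.7 ± 9.77 to 51.7 ± 19.5 CPM (SD, n = 3), a log2 fold change of -0.84 (standard error 0.231), or 55.8% of the control level (edgeR FDR 0.0376). The call was lost without Apatinib replicate 1 (FDR 0.0827), control replicate 1 (FDR 0.130) or control replicate 2 (FDR 0.124).

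CDC20 (ENSG00000117399), the activator of the anaphase-promoting complex and the protein that the checkpoint holds back, had 206, 91.2 and 160.2 CPM with Apatinib. Its control values were 181, 174 and 199 CPM. Apatinib replicate 1 was above every control replicate, Apatinib replicate 3 was just below them and Apatinib replicate 2 far below. The log2 fold change was -0.27 (standard error 0.227, 95% interval -0.77 to 0.22) and did not pass the test (edgeR FDR 0.448). Without Apatinib replicate 2 it was -0.01, so the estimate below 0 rested on that library, and without Apatinib replicate 1 it was -0.55 (edgeR FDR 0.131). The pseudogene CDC20P1 had 12 to 38 counts in the Apatinib replicates and 9 to 14 in the controls, against 1616 to 4335 counts for CDC20.

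**Figure D2:**
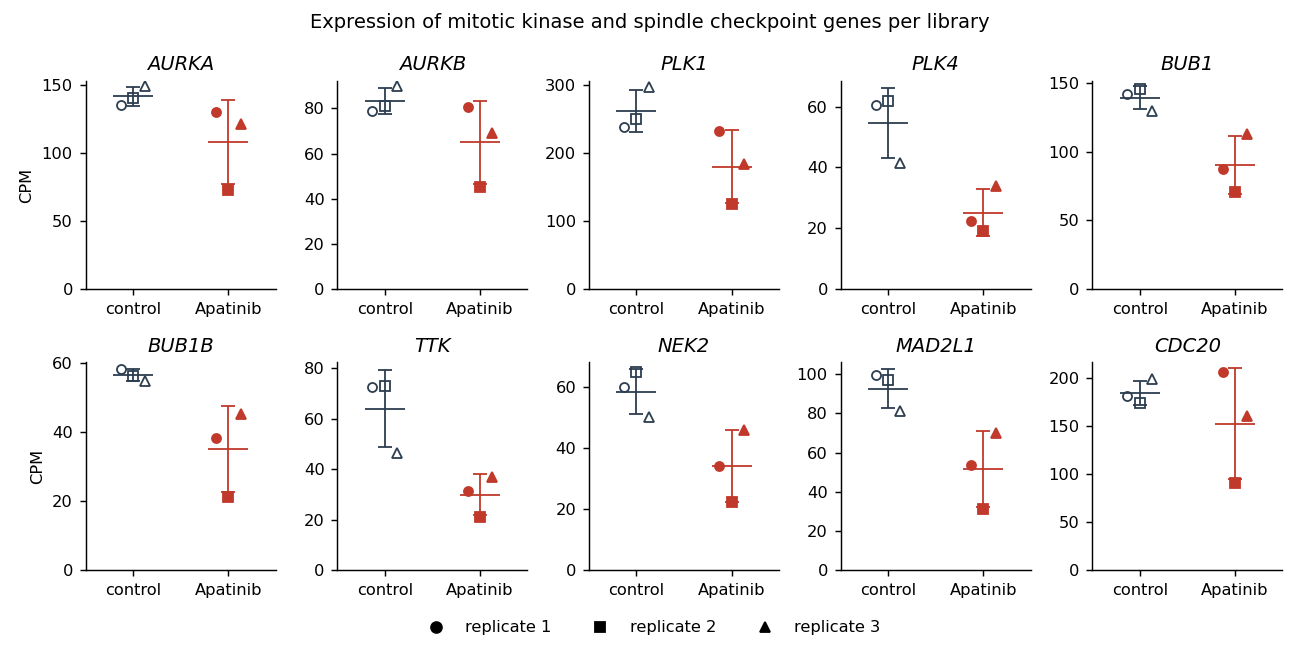
TMM-scaled CPM, on axes that start at 0, is plotted for each of the 10 genes, with 1 mark for each library, 3 Apatinib and 3 control replicates. The Apatinib marks lie below every control mark for 8 genes, and Apatinib replicate 1 reaches into the control range for AURKB, at 80.8 CPM, and above it for CDC20, at 206 CPM.

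The replicates of the Apatinib group did not sit at a common level. The summed level of the 10 genes was 917, 519 and 879 CPM in Apatinib replicates 1 to 3 and 1126, 1144 and 1139 CPM in the control replicates. Apatinib replicate 2 was the lowest library for each of the 10 genes. Control replicate 3 was the highest control for AURKA, AURKB, PLK1 and CDC20 and the lowest for the other 6 genes. Over the 6 libraries, the correlation of each gene with the mean log2 CPM of the other genes was between 0.779 for CDC20 and 0.990 for BUB1B. These correlations are a description over libraries of 2 groups, and all genes share the same libraries and scaling.

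Levels can be set beside each other between genes only per length, so the deposited FPKM values were used for the order. CDC20 had the highest control mean, 74.2 ± 3.88 FPKM (SD, n = 3), followed by PLK1 at 71.3 ± 14.2, whose range overlapped that of CDC20. AURKB followed at 56.2 ± 2.69 FPKM, AURKA at 43.9 ± 1.20, BUB1 at 28.6 ± 2.47 and NEK2 at 19.4 ± 2.86, each below the range of the gene before it. TTK at 14.5 ± 4.06, MAD2L1 at 13.2 ± 2.50, BUB1B at 13.1 ± 0.586 and PLK4 at 11.1 ± 2.65 FPKM came last, and the control ranges of neighbours from NEK2 to PLK4 overlapped. In the Apatinib group the first 6 genes kept their ranks, from 61.5 ± 21.5 FPKM for CDC20 to 11.5 ± 4.13 for NEK2, and PLK4 was again last at 4.95 ± 1.46. TTK went from rank 7 to rank 9, at 6.72 ± 1.76 FPKM, next to MAD2L1 at 7.19 ± 2.38 and BUB1B at 8.06 ± 2.98. The 4 genes with the highest FPKM in the controls were also the 4 whose log2 fold changes were nearest to 0.

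Related genes were next compared within each library, which asks whether the members of a pair changed by unequal amounts. The difference in log2 CPM between AURKA and AURKB averaged 0.73 with Apatinib and 0.77 without, a change of -0.04 (exact permutation p = 0.4). For PLK1 and PLK4 the difference was 3.37, 2.701 and 2.43 in the Apatinib replicates and 1.98, 2.01 and 2.84 in the controls. Control replicate 3 lay inside the treated range, and the change was 0.56 (exact permutation p = 0.3). It was 0.29 without Apatinib replicate 1, 0.84 without control replicate 3 and 0.08 with the GC correction described below. For CDC20 and MAD2L1 the difference was 1.93, 1.54 and 1.19 against 0.86, 0.84 and 1.28, a change of 0.56 (exact permutation p = 0.2), again with control replicate 3 inside the treated range, and it was 0.37 without Apatinib replicate 1 and 0.11 with the GC correction. The changes for NEK2 less TTK, 0.28 (exact permutation p = 0.3), and for BUB1 less BUB1B, 0.11 (exact permutation p = 0.8), did not pass the test either, and in these pairs, too, the values of the groups overlapped. All tests were two-sided, 3 against 3 libraries cannot give a p below 0.1, and the adjusted p over the 5 pairs was 0.5 or more. With this test an unequal change within a pair could not reach the threshold, and other tests of the pairs were not run.

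**Figure D3:**
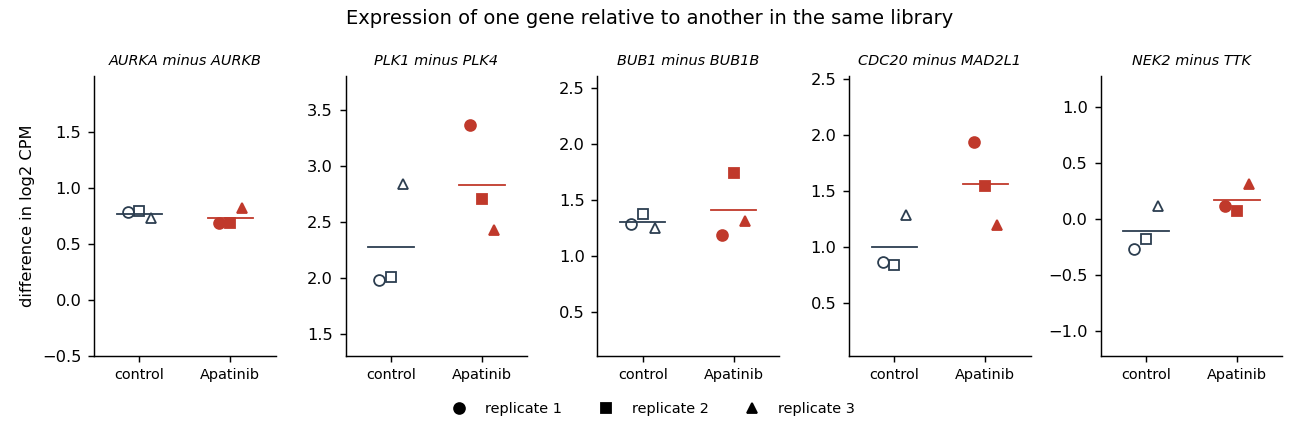
The difference in log2 CPM between the 2 genes of each of 5 pairs is plotted for the 3 Apatinib and 3 control libraries. For PLK1 less PLK4 and CDC20 less MAD2L1, control replicate 3, at 2.84 and 1.28, lies among the Apatinib replicates and apart from the other 2 controls.

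The changes of the 10 genes were ordered much like the GC content of their transcripts. The longest GENCODE transcript of PLK4 has 38.4% GC, that of MAD2L1 39.4% and that of TTK 40.8%, while PLK1 has 57.1% and CDC20 57.9%. Across the 10 genes, which are not independent replicates, the correlation of GC content with the log2 fold change was 0.815 (Pearson's r). The same order was seen over the 15819 tested genes with a GC value. Their median log2 fold change was -0.36 for the 2418 genes of at most 40% GC and 0.17 for the 4630 genes above 55%. By library, the median of the genes of at most 40% GC, relative to the mean of all 6, was 0.32 in both control replicates 1 and 2, -0.08 in control replicate 3 and -0.37, -0.12 and -0.04 in Apatinib replicates 1 to 3. Control replicate 3 thus lay among the treated libraries in this measure. For PLK4 and TTK it was the lowest control but stayed above every treated replicate.

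With a loess correction for GC content in each library, all 10 genes kept estimates below 0, in a narrower range from -0.87 for TTK to -0.40 for AURKA. The correlation with GC content was then 0.36, and in the corrected values the 3 treated replicates were below the 3 controls for each of the 10 genes and for 18.5% of all genes. In that fit 3 genes were called lower, TTK, PLK4 at -0.80 (edgeR FDR 0.0162) and PLK1 at -0.71 (edgeR FDR 0.0237), and 3.76% of all genes tested were called lower. BUB1 at -0.49 (edgeR FDR 0.0504), NEK2 at -0.61 (edgeR FDR 0.0798) and MAD2L1 at -0.56 (edgeR FDR 0.123) were no longer called. CDC20 moved from -0.27 to -0.46 (edgeR FDR 0.166). This correction was chosen after seeing the data, and what the GC difference between libraries comes from was not tested.

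**Figure D4:**
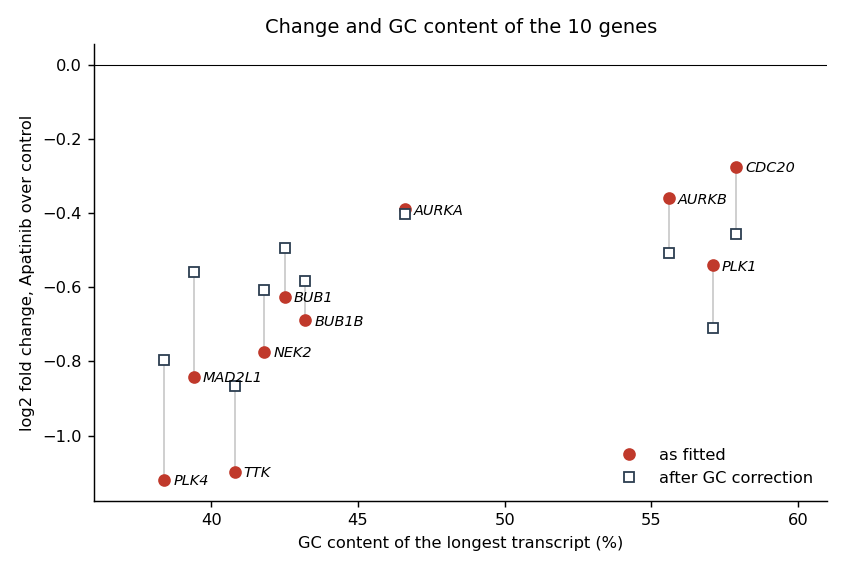
The log2 fold change of each gene before and after the GC correction is plotted against the GC content (%) of its longest transcript. Before the correction the estimates run from -1.12 to -0.27 with r = 0.815 over 10 genes, and after it from -0.87 to -0.40 with r = 0.36.

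Partners of these genes were then read from lists of their pathways, in which 30 of 89 tested genes (33.7%) were called lower, 1 was called higher and the median log2 fold change was -0.39, compared with 5.48% lower, 5.97% higher and a median of 0.00 over all genes tested. These counts, too, rested on control replicates 1 and 2, with 4 genes called lower without control replicate 1 (0.497% of all genes) and 3 without control replicate 2 (0.509%). They were 13 without Apatinib replicate 1 (1.62%) and 14 without Apatinib replicate 2 (3.63%). With controls 1 and 2 summed 4 were called lower (0.508%), and with the GC correction 23 (3.76%).

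Of 8 Aurora kinase partners, 4 were called lower and 1 higher, with a median of -0.62. BORA, the cofactor of AURKA in activating PLK1, fell from 57.4 ± 7.88 to 33.9 ± 5.95 CPM (SD, n = 3; log2 fold change -0.76, edgeR FDR 0.0146). SGO2, a shugoshin protein of the centromere, fell by 1.24 on the log2 scale (edgeR FDR 0.0171), with control values of 64.4, 74.3 and 30.9 CPM that were far apart. The gene called higher was AJUBA, a LIM protein that binds AURKA and also takes part in cell adhesion and Hippo signalling. It rose from 67.9 ± 5.86 to 126 ± 46.8 CPM (log2 fold change 0.89, edgeR FDR 0.0245), and its 178 CPM in Apatinib replicate 2 was well above the 109 and 89.6 CPM of the other treated replicates. Without control replicate 1, without control replicate 2 and with both summed, 0 of the 8 genes were called lower, and without Apatinib replicate 1 or 2 the count was 2.

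Among 13 other mitotic kinases, 6 were called lower and 0 higher, with a median of -0.46. CDK1, the kinase that drives mitotic entry, had 43.6, 29.7 and 55.4 CPM against 91.4, 101 and 69.2 CPM and fell by 1.02 on the log2 scale (edgeR FDR 0.0140). MASTL, which restrains the phosphatase that opposes CDK1, fell by 0.67 (edgeR FDR 0.0218), and MELK fell by 0.53 (edgeR FDR 0.0230). The count of calls was 0 without control replicate 1, without control replicate 2 and with both summed, and 3 without Apatinib replicate 1 or 2. The remaining Aurora and Polo family kinases had no call. PLK2, a stress-responsive Polo kinase outside the mitotic program, had 128, 141 and 136 CPM against 131, 134 and 138 CPM, a log2 fold change of 0.01 (edgeR FDR 0.965). PLK3 had an estimate of 0.22 (edgeR FDR 0.681), and AURKC and PLK5 had 7 or fewer counts in each library and were not tested.

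Of 12 spindle checkpoint partners, 6 were called lower and 0 higher, with a median of -0.62. The 3 with the smallest p encode kinetochore proteins. ZWINT had 28.7, 21.4 and 29.3 CPM against 47.4, 51.0 and 53.0 CPM, fell by 0.93 on the log2 scale (edgeR FDR 0.00568) and was close among its controls. KNL1, the scaffold that TTK phosphorylates, fell by 1.21 (edgeR FDR 0.0116), and ZWILCH, a subunit of the RZZ complex, fell by 0.83 (edgeR FDR 0.0119). The checkpoint partners BUB3, at -0.30 (edgeR FDR 0.101), and MAD1L1, at 0.31 (edgeR FDR 0.148), were not called and were picked out after their values were seen. The list had 1 call without control replicate 1, without control replicate 2 and with both summed, and 3 without Apatinib replicate 1.

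The checkpoint acts on the anaphase-promoting complex and, through it, on mitotic exit. Of 18 genes of this complex and its regulators, 2 were called lower (11.1%, compared with 5.48% of all genes tested) and the median was -0.13. These were FBXO5, the inhibitor EMI1 of the complex, which had 20.5, 18.1 and 23.2 CPM against 48.8, 51.4 and 35.1 CPM (log2 fold change -1.13, edgeR FDR 0.00482), and the core subunit CDC27 (log2 fold change -0.63, edgeR FDR 0.0249). The next smallest p belonged to CDC26, at -0.49 (edgeR FDR 0.114). Among 11 substrates and switches of mitotic exit, 1 was called lower (9.09%), CDC25A, the phosphatase that activates cyclin-dependent kinases, at -0.84 (edgeR FDR 0.0279). CCNB2 at -0.44 (edgeR FDR 0.0710) and CDC25C at -0.39 (edgeR FDR 0.0715) were not called, and all 11 estimates were below 0. Without control replicate 1, without control replicate 2 and with both summed, 1 of the 18 and 0 of the 11 genes were called, and without Apatinib replicate 1 the count of the 18 was 1. With the GC correction the counts were 1 and 2.

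Of the 10 genes of centriole duplication around PLK4, 8 were called lower and 0 higher, with a median of -0.74. STIL, which binds and activates PLK4, had 41.4, 46.4 and 52.3 CPM against 80.6, 88.5 and 71.5 CPM and fell by 0.78 on the log2 scale (edgeR FDR 0.00778). CEP152, the receptor that brings PLK4 to the centriole, fell by 1.17 (edgeR FDR 0.0181), and SASS6, which forms the cartwheel of the new centriole, fell by 1.19 (edgeR FDR 0.0223). Without control replicate 1 the list had 1 call and without control replicate 2 it had 0, compared with 1 with both summed and 9 without control replicate 3. It had 1 call without Apatinib replicate 1 or without Apatinib replicate 2, and 4 with the GC correction.

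Of 15 tested transcription factors and cofactors of late cell cycle genes, 3 were called lower and 0 higher, with a median of -0.27. E2F8, an atypical E2F repressor, fell from 21.1 ± 1.06 to 10.1 ± 1.64 CPM (SD, n = 3; log2 fold change -1.06, edgeR FDR 0.00487). LIN9, a subunit of the MuvB complex that binds CHR elements, fell by 0.91 (edgeR FDR 0.0296), and NFYB, a subunit of the factor that binds CCAAT boxes, fell by 0.57 (edgeR FDR 0.0401). FOXM1, an activator of G2/M genes that was picked out after its values were seen, had 195, 107 and 164 CPM against 167, 175 and 203 CPM, with overlapping groups and an estimate of -0.23 on the log2 scale (edgeR FDR 0.451). Without control replicate 1, without control replicate 2, with both summed or without Apatinib replicate 2, 1 of the 15 genes was called lower.

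**Figure D5:**
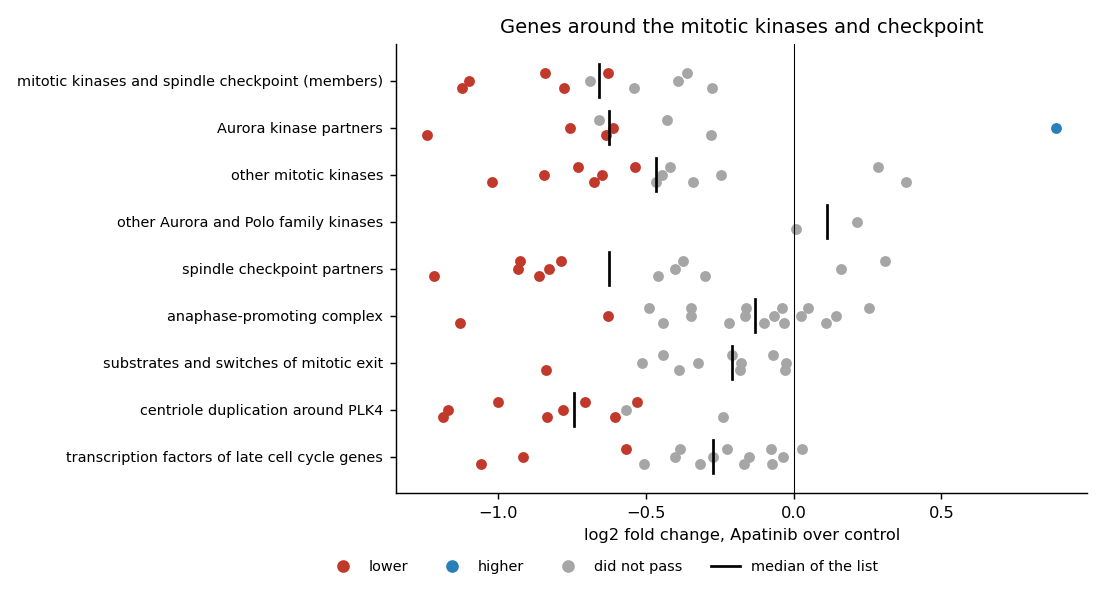
Each point is the log2 fold change of 1 tested gene (Apatinib against control, edgeR), in rows for the 10 mitotic genes and their 8 pathway lists, with colours for genes called lower or higher and a bar at the median of each row. The medians run from -0.74 for centriole duplication to 0.11 for the 2 tested other Aurora and Polo kinases, compared with 0.00 over all genes tested, and AJUBA at 0.89 is the gene called higher.

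The 5 genes outside the list whose log2 CPM followed the mean of the 10 mitotic genes most closely over the 6 libraries were UTP11L, RYR3, TEX19, CDKN3 and PASK, with Pearson's r between 0.997 and 0.999. Of these UTP11L (log2 fold change -0.56, edgeR FDR 0.0498), CDKN3 (-0.63, edgeR FDR 0.0368) and PASK (-0.59, edgeR FDR 0.0453) were called lower. CDKN3 is a phosphatase that acts on cyclin-dependent kinases. RYR3 and TEX19 were at low levels and were not called. They were the highest of 16290 genes over 6 libraries, so values of this size are a description only.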

How the data were processed

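RNA from SW872 cells was sequenced on an Illumina instrument, with 3 replicates treated with Apatinib and 3 untreated, which the study's methods call biological replicates. The labels do not say whether these were separate cultures, so p-values measure the spread between these samples, which may be technical. Per the submitters' processing notes, which give tools with no order, CASAVA, STAR 2.7.1a and the build hg19 were used. The counting program, the annotation and its strand setting were not given in the sources used here. The authors deposited whole-number counts for 57773 genes in the 6 libraries, not normalized, and FPKM values for each library. A further column in the values of Apatinib replicate 1 (1 column) bore the name of control replicate 3 and was not used.

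The edgeR package 4.0.16 in R 4.3.3 was applied to the counts. Its filterByExpr function kept 16290 genes, TMM factors were between 0.952 and 1.03, and the quasi-likelihood test compared the 2 groups with no covariate, with Benjamini-Hochberg adjustment over all genes tested. DEGs were called by the limits of the study's methods, 0.05 for the FDR and 0.5 for the size of the log2 fold change. The log2 CPM values used a prior count of 2. The fit was tested on simulated data with known changes. The model covers counting error, and its common biological coefficient of variation was 0.149. Pairs of genes were compared by the exact permutation test of their difference in log2 CPM. FPKM values were used for levels between genes and, with limma 3.58.1, as an alternative. GC content came from GENCODE release 29, for 97.1% of the genes tested, and promoters from RefSeq.

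All 10 genes are named, with the 3 genes of smallest p on each list, up to 2 called in the opposite direction, the 5 genes most correlated with the mean of the 10, and the leading markers. The genes and lists were chosen with earlier results of these data known, so counts over them are a description. Alternatives were DESeq2 1.42.0, RLE size factors, other filters on low counts, a replicate block, controls 1 and 2 summed, limma on log2(FPKM + 1) and log2(FPKM + 0.1), other call limits and leaving out each replicate. The GC correction, and leaving out replicates for the pairs and for the overlap of groups, were chosen after seeing the data.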

Additional observations from a re-analysis of the deposited data

How the results depend on the processing

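The 10 genes had log2 fold changes below 0 under each of 16 alternatives, and their median stayed between -0.87 and -0.45, compared with -0.66. Calls were less stable. Of the 10 genes, 5 were called lower, and the count was 0 with controls 1 and 2 summed (edgeR, 7 genes at an unadjusted p under 0.05), 0 with glmTreat (edgeR, 4 at an unadjusted p under 0.05), 0 with limma on log2(FPKM + 1) of all genes (6 at an unadjusted p under 0.05), 2 with limma at either pseudocount after the filter, and 3 with the GC correction. The share of all genes called lower, 5.48% as reported, was 0.508%, 0.0859%, 0.00591%, 1.52% or 1.47% by pseudocount, and 3.76% under these. The number of all genes at an unadjusted p under 0.05 was not taken in these fits. In the reported edgeR fit it was 4979 of 16290, in either direction, with 7 of the 10 genes. Leaving out each replicate gave 0 to 6, with 0.497% to 8.89% of all genes called lower. DESeq2 (1049 genes called lower, 3.22%) and edgeR with no filter (1261 genes, 3.87%) gave 7 each. These 2 shares are of 32596 genes, whereas the reported fit called 893 of 16290 genes lower. The RLE factors (5.54%), the filter at 10 counts (5.85%) and the FDR limit alone (6.07%) gave 5 each. Beside glmTreat, under which all 5 lost their calls, PLK4 and TTK lost theirs under 4 of the 16 alternatives that refit the fold changes, MAD2L1 under 8 and BUB1 and NEK2 under 9 each. The number of genes with every treated replicate below every control was 8 to 10 under all its alternatives, in which the share of all genes was 12.1% to 26.7%. It was 10 with the GC correction (18.5%) and without Apatinib replicate 1 (20.3%). Leaving out a replicate could not lower this number, since the values of the other libraries stayed the same. Those alternatives therefore say nothing about whether the number is stable.

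On the pathway lists, where 30 genes were called lower, the count was 4 with controls 1 and 2 summed, 12 with limma at either pseudocount, 0 with limma and no filter (43 genes lower at an unadjusted p under 0.05) and 3 to 31 with each replicate left out. For all genes the number at that unadjusted limit was taken only in the reported edgeR fit, where it was 4979 of 16290 in either direction. The change in AURKA less AURKB was -0.04 and turned to 0.0877 with the GC correction. With the same correction the change in PLK1 less PLK4 went from 0.56 to 0.08 and that in CDC20 less MAD2L1 from 0.56 to 0.11, and the cause was not tested. Without Apatinib replicate 2 the change in BUB1 less BUB1B was -0.06, compared with 0.11. Same-numbered libraries deviated together with r of -0.259, 0.0808 and -0.22, and libraries of unlike number with r of -0.219 to 0.387. The labels do not say whether replicate numbers pair the libraries. These values, centred within each group, cannot decide it. The fit with a replicate block called 7 of the 10 genes, 34 list genes and 7.17% of all genes lower, with a median of -0.70. The lowest count of any of the 10 genes in a library was 337.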
